A study of Mus musculus with 2 samples.

Results

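The genes described are 9 that carry zinc and copper through the intestinal wall and hold both metals inside cells. They were chosen by name for their known roles, by a rule that uses no measured value though earlier results of these data were known, and all 9 were found among the 43346 Ensembl genes in the tables. The metal-binding proteins are the metallothioneins Mt1 and Mt2, and Mtf1 encodes the transcription factor that senses zinc. Zinc is carried by the importers Slc39a4 and Slc39a5 and the exporter Slc30a1, and copper by the importer Slc31a1, the chaperone Atox1 and the pump Atp7a. Poly(A) RNA was sequenced from the small intestine of 1 adult female C57BL/6J mouse, 10 weeks old, with no treatment or mutation named in the labels. The labels list 1 biological replicate with 2 technical libraries. Technical replicate 1 is the first library below and technical replicate 2 the second, made later than the publication that used the first. No condition was compared, so the question the data answer is which of these genes the tissue expresses, at what level, and how closely a repeated library returned the same value.

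Enterocytes take up dietary zinc at the brush border through ZIP proteins such as Slc39a4, whose human counterpart is mutated in acrodermatitis enteropathica, and release it to the blood through ZnT proteins. When zinc in the cell rises, Mtf1 binds short metal response elements (MREs) and switches on Mt1, Mt2 and Slc30a1. Copper enters through Slc31a1, is handed on by Atox1, and is pumped into the secretory pathway and out to the blood by Atp7a, the gene mutated in Menkes disease.

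The coding sequences of Mt1 and Mt2 are shown because their cysteine codons make the metal-binding clusters of these proteins. The sequences are those of the GENCODE M21 transcripts, without the stop codon, and capitals mark the cysteine codons TGC and TGT.
Mt1: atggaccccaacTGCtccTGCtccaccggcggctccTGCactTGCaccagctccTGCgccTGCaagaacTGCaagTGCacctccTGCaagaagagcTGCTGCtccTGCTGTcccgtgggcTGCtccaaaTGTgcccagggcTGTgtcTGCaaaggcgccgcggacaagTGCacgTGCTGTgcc
Mt2: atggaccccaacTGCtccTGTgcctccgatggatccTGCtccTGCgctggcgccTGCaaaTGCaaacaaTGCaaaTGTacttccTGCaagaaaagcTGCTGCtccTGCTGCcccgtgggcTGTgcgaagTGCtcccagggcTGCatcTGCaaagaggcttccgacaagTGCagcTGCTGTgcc
Each holds 61 codons, of which 20 encode cysteine, 16 as TGC and 4 as TGT. All 20 cysteine codons stand at the same places in both genes, and 145 of 183 bases are identical (79.2%). The GC content of the coding sequence is 63.9% in Mt1 and 59.0% in Mt2. Mt2 lies on chromosome 8 at 94172664 to 94173568 and Mt1 at 94179082 to 94180327, both on the plus strand of mm10, with 5513 bases between them.

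The bases upstream of the start sites of Mt1, Mt2 and Slc30a1 are shown because these are well-known target genes of Mtf1. Each run is the 250 bases before the RefSeq start site on GRCm38.p6, read 5′ to 3′ on the gene's plus strand, and capitals mark the MRE core. The cores searched were TGCACNC and TGCGCNC on both strands, which cannot match at the same base on the same strand.
Mt1, chr8:94178839-94179088: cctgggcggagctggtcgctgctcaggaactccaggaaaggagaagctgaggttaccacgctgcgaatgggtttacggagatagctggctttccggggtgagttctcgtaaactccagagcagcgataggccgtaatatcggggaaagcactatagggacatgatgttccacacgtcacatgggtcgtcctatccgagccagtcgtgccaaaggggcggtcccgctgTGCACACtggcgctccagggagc
Mt2, chr8:94172368-94172617: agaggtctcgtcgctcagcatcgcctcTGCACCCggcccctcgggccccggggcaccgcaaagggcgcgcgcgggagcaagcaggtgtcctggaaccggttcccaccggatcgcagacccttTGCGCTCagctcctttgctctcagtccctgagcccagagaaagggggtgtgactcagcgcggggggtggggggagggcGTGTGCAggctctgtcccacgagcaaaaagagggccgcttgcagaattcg
Slc30a1, chr1:191906531-191906780: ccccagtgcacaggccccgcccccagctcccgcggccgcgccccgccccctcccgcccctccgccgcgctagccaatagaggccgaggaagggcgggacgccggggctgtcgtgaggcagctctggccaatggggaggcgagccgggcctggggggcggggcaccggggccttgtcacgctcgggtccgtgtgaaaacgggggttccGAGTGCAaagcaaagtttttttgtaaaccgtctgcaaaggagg
Mt2 held 3 cores in this window, Mt1 held 1 and Slc30a1 held 1. Among all 32851 windows of the same length in that RefSeq table, 21.4% held 1 or more cores, 5.17% held 2 or more and 1.26% held 3 or more. RefSeq windows matched 8 of the 9 genes, all but Slc39a4. Atp7a held 2 cores, Slc39a5 held 1 at one of its start sites and 0 at the other, and Mtf1, Slc31a1 and Atox1 held 0. A match of letters is a description and not a binding site.

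For both metallothioneins, further cores stood inside the annotated 5′ leader, upstream of a TATAAA. In Mt1 the leader has 229 bases, with 4 cores and the TATAAA at base 129, counted from the annotated start. In Mt2 it has 184 bases, with 3 cores and the TATAAA at base 90. Of 9948 leaders long enough to compare with Mt1, 0.261% held as many cores, and of 11870 for Mt2, 0.607% did. A TATAAA was present in 3.72% and 2.99% of those leaders. The cores are given with 3 bases on each side, in capitals.
Mt1, bases 10 to 16: ctcTGCACTCcgc
Mt1, bases 28 to 34: aagTGCGCTCggc
Mt1, bases 92 to 98: gctGGGTGCAaac
Mt1, bases 106 to 112: cttTGCGCCCgga
Mt2, bases 13 to 19: ggcGTGTGCAggc
Mt2, bases 32 to 38: ggcGCGTGCAtgg
Mt2, bases 66 to 72: tttTGCGCTCgac
Sites whose capitals end in TGCA are matches on the minus strand. These data hold no measure of Mtf1 binding, so the sequences stand beside the expression values as background.

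The 2 libraries stood far apart as wholes, and every comparison below carries that difference. The first held 28277875 expected counts and the second 24509862, and 0 counts allow up to 0.106 and 0.122 CPM (counts scaled to library size), for counting error only. Mitochondrial genes and their nuclear copies held 72.3% of all TPM, the abundance per transcript length scaled to a common sum, in the first library and 21.6% in the second, which lowers the TPM of every other gene in the first. Of 15194 genes with 20 or more counts over both libraries, 67.7% differed by 2-fold or more past an adjusted p of 0.05. That rested on a two-sided exact binomial test with Benjamini-Hochberg adjustment, which compares these 2 libraries, from 1 animal, and covers counting error only. Of all tested genes 40.2% were called higher in the second library and 27.5% lower. The difference followed GC content. At 40 to 44% GC the median log2 ratio, second over first, was -1.70, and at 56 to 60% GC it was 4.28. The sources used here do not say whether 1 RNA extraction served both libraries.

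The tissue expressed markers of the labelled organ in both libraries. All 10 enterocyte markers reached 1 TPM in both, with sums of 7262 and 25918 TPM. Markers of other cells were present as well, and all of their sums were higher in the second library. Paneth cell markers summed to 1533 and 14793 TPM, goblet cell markers to 491 and 12283, plasma cell markers to 619 and 8329, smooth muscle markers to 29.1 and 871 and adipocyte markers to 42.8 and 319. Pancreatic acinar markers, 16 of 18 at 1 TPM or more in both, summed to 2797 and 17883 TPM, and Prss1 had 0 counts in the first library. The largest term of the first sum was Amy2a5, at 1355 TPM, with wide deposited TPM bounds of 139 to 2391. In the second library it stood at 1821 TPM, with bounds of 144 to 3555. Hepatocyte markers summed to 6.82 and 20.9 TPM, and Ahsg had 0 counts in both. All these sums carry the mitochondrial share given above. Without mitochondrial genes and copies, they were 26244 and 33061 TPM for enterocytes and 24.6 and 26.6 for hepatocytes. Acinar markers then summed to 10107 and 22811, Paneth cell markers to 5542 and 18870 and goblet cell markers to 1775 and 15668. The sums were 2236 and 10624 for plasma cells, 105 and 1111 for smooth muscle and 155 and 407 for adipocytes. The part of these cells in the results below was not tested, and in bulk tissue fewer cells of a type and less RNA per cell cannot be told apart.

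All 9 zinc and copper genes had counts in both libraries, and all 9 passed 1 TPM in the second. Slc39a5 and Atox1 had only 2 counts each in the first, 0.0707 CPM. That is under the 0.106 CPM that 0 counts allow. In the first, 5 passed it and Mt1, Slc39a4, Slc39a5 and Atox1 did not. Together they held 166 and 617 TPM, or 602 and 787 TPM without mitochondrial genes in the scaling. The makeup of that sum differed: Slc31a1 alone was 84.9% of it in the first library and 21.8% in the second. The zinc transporters were 5.54% and 34.8% of it, and the metallothioneins 1.12% and 18.7%. In the second library the order of levels in TPM was Atox1, Slc31a1, Slc39a4, Slc39a5, Mt1, Mt2, Mtf1, Slc30a1 and Atp7a. In the first it was Slc31a1, Atp7a, Slc30a1, Mtf1, Mt2, Slc39a4, Mt1, Atox1 and Slc39a5. The authors' deposited TPM bounds, whose interval level the file headers do not state, overlapped for Atox1 and Slc31a1 and for Slc39a5 and Mt1 in the second library. In the first they overlapped for Atp7a and Slc30a1 and between each pair of neighbours from Mt2 to Slc39a5. Neighbours with overlapping bounds cannot be ordered within a library. Bounds that stand apart do not settle an order either, because these levels are not corrected for the GC difference given above.

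**Figure D1:**
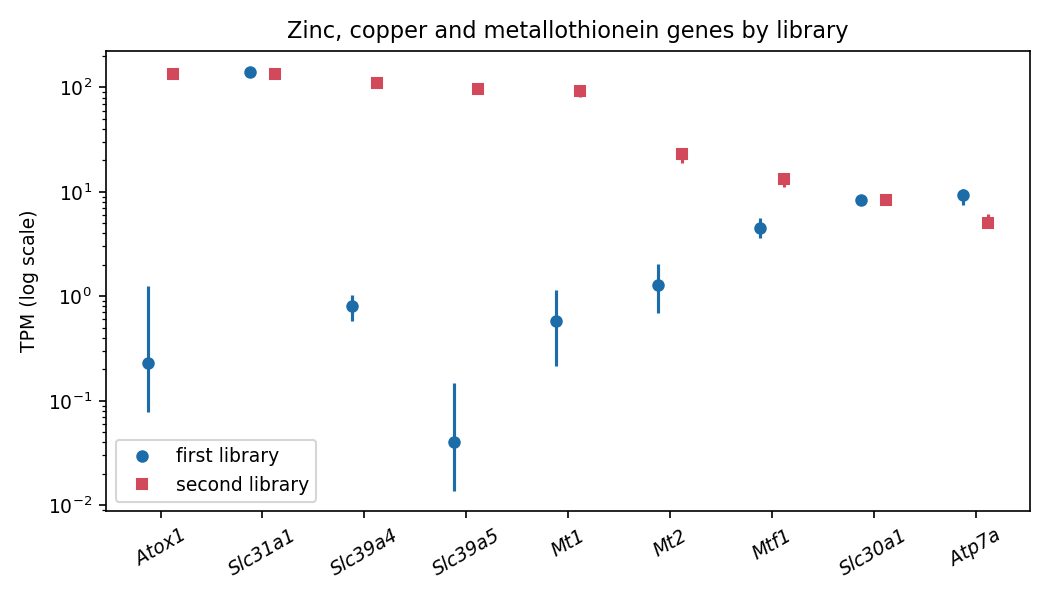
TPM of each gene (log axis) in the first library (blue circles) and the second (red squares), with vertical lines for the deposited TPM bounds, ordered by the level in the second library. Atox1, Slc39a4, Slc39a5 and Mt1 sit under 1 TPM in the first library and at 92.0 TPM or more in the second, while Slc31a1 and Slc30a1 sit at nearly the same TPM in both.

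Metallothionein transcripts were scarce in the first library and clearly present in the second. Mt1, a small cysteine-rich protein that buffers zinc and copper, stood at 0.58 TPM from 6 counts and at 92.0 TPM from 628 counts. The deposited bounds were 0.214 to 1.14 and 81.3 to 94.99 TPM, so the libraries did not overlap. On TMM-scaled counts Mt1 was 67.5-fold higher in the second library, with a 95% counting interval of 30.8 to 185. Its log2 ratio was 5.96 ± 0.57 (counting SE; exact binomial test, adjusted p = 3.37e-124). Mt2, its neighbour and close copy, stood at 1.29 TPM from 14 counts and at 23.3 TPM from 166 counts. The libraries did not overlap here either, with bounds of 0.698 to 2.02 and 19.0 to 25.8 TPM. The scaled ratio was 7.65-fold (4.43 to 14.3), or 2.89 ± 0.40 (counting SE) on the log2 scale (exact binomial test, adjusted p = 3.09e-21).

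The balance between the metallothioneins was not the same in the libraries. Mt1 gave 6 of 20 metallothionein counts in the first library, a share of 30% with a 95% Clopper-Pearson interval of 11.9 to 54.3%. It gave 628 of 794 in the second, 79.1% (76.1 to 81.9%), and the intervals did not overlap. Both transcripts are of similar length, 540 and 556 bases, but differ in GC content, at 58.1% for Mt1 and 55.6% for Mt2. The trend of the log2 ratio with GC content stood at 4.38 for Mt1 and 3.06 for Mt2. The part of GC content in the shift of balance was not tested. The other family members were nearly absent: Mt3, known mainly from brain, had 0 and 5 counts, and Mt4, known from stratified epithelia, had 0 counts in both.

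The zinc sensor Mtf1, on chromosome 4 at 124802104 to 124849800, was expressed in both libraries at a modest level. It stood at 4.49 TPM from 537 counts and at 13.2 TPM from 967 counts, with bounds of 3.60 to 5.63 and 11.0 to 15.0 TPM that did not overlap. Its scaled log2 ratio of 0.22 ± 0.08 (counting SE) was under 2-fold (exact binomial test, adjusted p = 0.00657). The TPM difference was wider than the difference in scaled counts. With mitochondrial genes left out of the sum, Mtf1 stood at 16.2 and 16.8 TPM.

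The brush border zinc importer Slc39a4 (ZIP4), on chromosome 15 at 76612383 to 76617384, was also low in the first library. It stood at 0.80 TPM from 48 counts in the first library and at 109 TPM from 4213 counts in the second. The bounds were 0.58 to 1.02 and 101 to 108 TPM. These bounds surround the estimator's mean rather than the listed TPM, which can lie just outside them. The scaled ratio was 56.6-fold (42.6 to 76.9), a log2 ratio of 5.81 ± 0.21 (counting SE), with an adjusted p in the exact binomial test too small for double precision. Slc39a5 (ZIP5), an importer of the basolateral membrane, lies on chromosome 10 at 128395931 to 128401229. It had 2 counts, 0.04 TPM, in the first library and 3238 counts, 97.3 TPM, in the second. The ratio was 1044-fold with a counting interval of 289 to 8625, wide because it rests on 2 counts. Its log2 ratio of 9.71 ± 0.91 (counting SE) was the highest of the 9 genes. Acinar cells of the pancreas are also known to express Slc39a5, and the acinar sums of 2797 and 17883 TPM stand beside this value. The largest term of the first sum, Amy2a5, has the wide bounds given above. Without mitochondrial genes these sums were 10107 and 22811 TPM. The part of acinar cells in the Slc39a5 value was not tested.

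Within the second library the importers stood close together, with Slc39a4 giving 56.5% of their 7451 counts (Clopper-Pearson interval 55.4 to 57.7%). In the first library Slc39a4 gave 48 of 50, or 96.0% (86.3 to 99.5%). The first share rests on few counts, and the intervals did not overlap. GC content was 57.0% for Slc39a4 and 59.9% for Slc39a5, where the trend of the log2 ratio stood at 3.85 and 5.10. Its part in the shares was not tested.

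The zinc exporter Slc30a1 (ZnT1), which moves zinc out across the plasma membrane, had nearly the same TPM in both libraries. It lies on chromosome 1 at 191906767 to 191913247 and stood at 8.39 TPM from 1255 counts and at 8.34 TPM from 796 counts. The bounds of 7.76 to 8.70 and 7.52 to 8.87 TPM overlapped. On TMM-scaled counts it was higher in the first library by 2.44-fold (2.24 to 2.68), a log2 ratio of -1.29 ± 0.07 (counting SE; exact binomial test, adjusted p = 5.21e-89). TPM is scaled to the sum over all transcripts, mitochondrial ones included. Without those Slc30a1 stood at 30.3 and 10.6 TPM. Thus, without GC correction, the Mtf1 targets shown above, Mt1, Mt2 and Slc30a1, did not differ in the same direction between the libraries. With the plain GC trend removed, as set out below, their log2 ratios were 1.58, -0.17 and -3.43. With the trend of GC weighted by transcript share removed they were 1.18, -0.56 and -0.56, and only Mt1 was past 2-fold.

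The copper importer Slc31a1 (CTR1), on chromosome 4 at 62360727 to 62391769, was the most abundant of the 9 genes by mean TPM. It stood at 141 TPM from 14794 counts and at 134 TPM from 8957 counts, with bounds of 135 to 139 and 126 to 131 TPM that did not overlap. On scaled counts it was higher in the first library by 2.56-fold (2.49 to 2.63), a log2 ratio of -1.36 ± 0.02 (counting SE). Without mitochondrial genes in the sum it stood at 511 and 171 TPM. Atox1, the cytosolic chaperone that hands copper to the pump, lies on chromosome 11 at 55446641 to 55461239. It had 2 counts, 0.23 TPM, in the first library and 917 counts, 135 TPM, in the second, a ratio of 296-fold with a counting interval of 81.6 to 2445. Its log2 ratio was 7.89 ± 0.91 (counting SE; exact binomial test, adjusted p = 4.08e-193). Atp7a, the copper pump, lies on chromosome X at 106027276 to 106124926. It stood at 9.24 TPM from 571 counts and at 5.02 TPM from 444 counts, with bounds of 7.52 to 10.6 and 4.51 to 6.16 TPM that did not overlap. Its scaled log2 ratio of -0.995 ± 0.09 (counting SE) lay just under 2-fold (exact binomial test, adjusted p = 1.44e-27). The 3 steps of copper transfer thus had, in the order importer, chaperone and pump, levels of 141, 0.23 and 9.24 TPM in the first library. In the second library the levels were 134, 135 and 5.02 TPM. Of the 9.24 TPM of Atp7a, 5.68 was assigned to the processed transcript Atp7a-204, which had 0 counts in the second library. The coding transcripts Atp7a-201 and Atp7a-202 together stood at 3.39 and 4.97 TPM. The 0.23 TPM of Atox1 rests on 2 counts. None of these levels is corrected for GC content, so they do not settle an order of the 3 steps.

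Counted together, 5 of the 9 genes were higher in the second library (Mt1, Mt2, Slc39a4, Slc39a5 and Atox1), 2 were higher in the first (Slc30a1 and Slc31a1), and Mtf1 and Atp7a differed by less than 2-fold. Over all tested genes 67.7% were called in either direction, 40.2% toward the second library and 27.5% toward the first. The members' median log2 ratio was 2.89 against 0.26 over all tested genes, and 6 of 9 were above 0. Each call is set beside the share of genes of like GC content that were called the same way. Mt1, Slc39a4 and Slc39a5 had GC contents of 57.0 to 59.9%, and of genes at 56 to 60% GC 92.2% were called higher in the second library. For Atox1, at 60.1%, that share was 94.9%, among genes at 60 to 64%. For Mt2, at 55.6%, it was 72.2%, among genes at 52 to 56%. Mt2 lies near the upper edge of that bin, and the next bin up is the one with 92.2%. Slc31a1 had 44.0%, just inside 44 to 48%, where 45.5% were called higher in the first library and 2.89% in the second. In the bin just below, 40 to 44%, those shares were 88.8% and 0.221%. Slc30a1, at a plain-mean GC of 54.0%, lay where 2.19% were called higher in the first library and 72.2% in the second. Its call thus went against that of most genes of that bin. Its only transcript with counts had 46.2% GC, however. In that bin, 44 to 48%, 45.5% were called higher in the first library, as Slc30a1 was, and 2.89% in the second. Of the genes under 2-fold, Atp7a had 41.7% and Mtf1 50.6%.

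**Figure D2:**
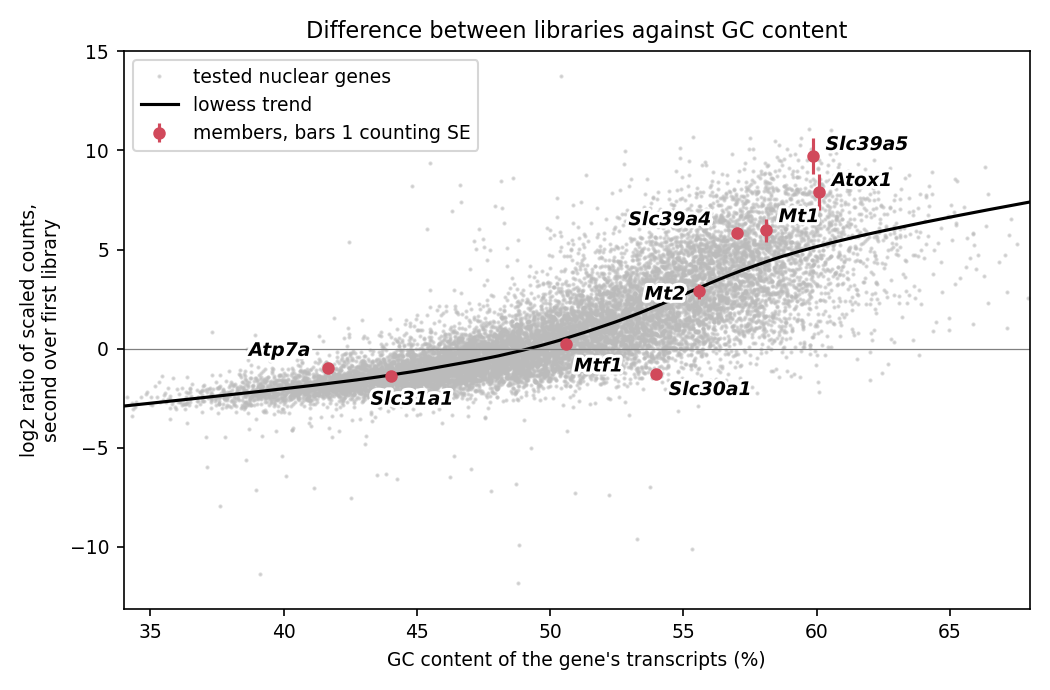
Log2 ratio of TMM-scaled counts, second over first library, against the mean GC content of each gene's transcripts, for tested nuclear genes (grey points), their lowess trend (black line) and the 9 zinc and copper genes (red, bars 1 counting SE). Slc31a1, Mtf1 and Mt2 lie near the trend, Slc39a5, Atox1, Slc39a4 and Mt1 above it, and Slc30a1 well below it at a plain-mean GC of 54.0%.

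With the GC trend subtracted, the zinc importers and Atox1 were still higher in the second library, and Mt2 was not. Log2 ratios became 4.61 for Slc39a5, 2.71 for Atox1, 1.96 for Slc39a4 and 1.58 for Mt1, each past the exact binomial test against the trend (adjusted p = 1.02e-22, 4.96e-05, 2.07e-32 and 0.00172). Mt2 moved to -0.17 (adjusted p = 0.726) and Slc31a1 to -0.03 (adjusted p = 0.17), so neither passed the exact binomial test against the trend. That test covers counting error only and leaves out the spread of other genes of like GC content. At 56 to 60% GC the quartiles of the uncorrected log2 ratio were 2.65 and 5.77, beside 5.96 for Mt1 and 5.81 for Slc39a4. Mtf1 moved to -0.30 and Atp7a to 0.76, both under 2-fold, and Slc30a1 to -3.43. In all, 4 genes were called higher in the second library and 1, Slc30a1, was called lower. The median was 0.76, and 5 of 9 were above 0. Over 15096 genes 35.3% were called in either direction, 17.6% toward the second library and 17.7% toward the first, and the median was -0.01.

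The value of Slc30a1 rested on how its GC content was formed. All of its counts were assigned to 1 transcript of 46.2% GC, while a 677-base transcript with 0 counts raised the plain mean to 54.0%. GC content weighted by each transcript's share of the gene's TPM was therefore tried as well, after this was seen. Slc30a1 then had a log2 ratio of -0.56, under 2-fold, though past the exact binomial test (adjusted p = 1.75e-17). With weighted GC the log2 ratios were 4.18 for Slc39a5, 2.48 for Atox1, 1.57 for Slc39a4 and 1.18 for Mt1, all still higher in the second library (adjusted p = 2.56e-16, 4.13e-04, 6.45e-19 and 0.0364). Mt2 stood at -0.56 (adjusted p = 0.254), Mtf1 at -0.04 (adjusted p = 0.668), Atp7a at 0.47 (adjusted p = 8.48e-07) and Slc31a1 at -0.17 (adjusted p = 1.73e-17), the last 2 past the exact binomial test but under 2-fold. The count was 4 toward the second library and 0 toward the first, and the median 0.47. Over 15142 genes 29.0% were called in either direction, 15.0% toward the second library and 14.0% toward the first, and the median was -0.02.

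**Figure D3:**
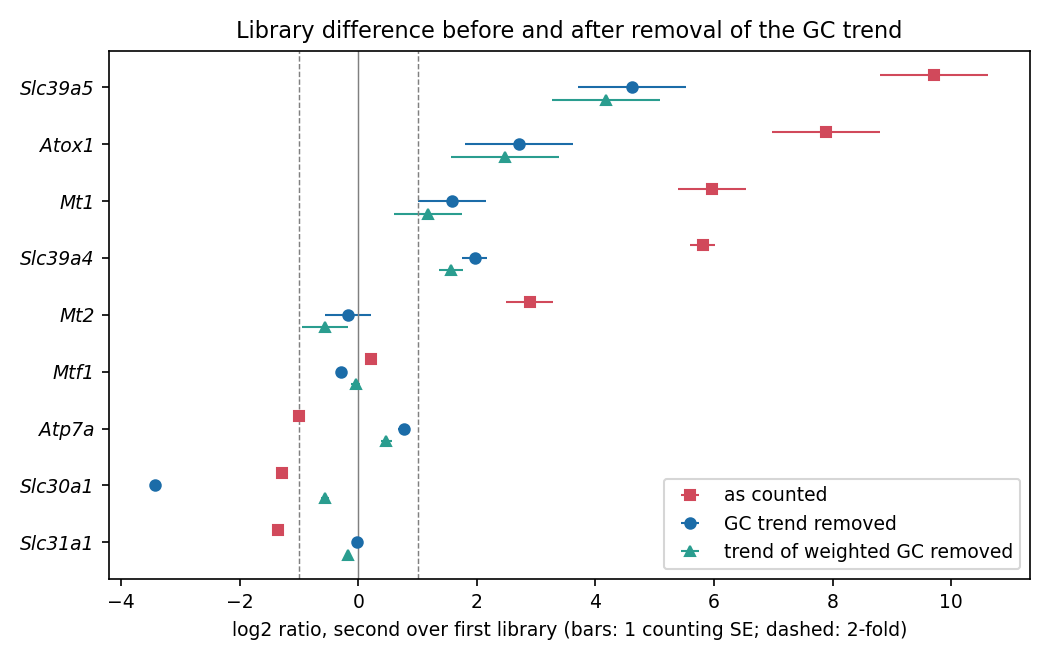
Log2 ratio, second over first library, of each of the 9 genes as counted (red squares), with the GC trend removed (blue circles) and with the trend of share-weighted GC removed (green triangles); bars are 1 counting SE and dashed lines mark 2-fold. Slc39a5, Atox1, Slc39a4 and Mt1 lie above 2-fold under all 3, Mt2 falls from 2.89 to -0.17 and -0.56, and Slc30a1 ranges from -3.43 to -0.56.

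The wider families were read from 6 lists of zinc and copper genes, 67 in all. The ZIP importers summed to 72.6 and 513 TPM, or 262 and 655 TPM without mitochondrial genes in the scaling. Of 13 tested importers, 6 were called higher in the second library, 3 lower, and the median log2 ratio was 0.84. Over all tested genes 40.2% were called higher and 27.5% lower, with a median of 0.26. Slc39a4 and Slc39a5 led the list by mean TPM with Slc39a14, an importer of zinc and manganese, at 14.9 and 88.9 TPM and a log2 ratio of 0.84. The ZnT exporters summed to 174 and 200 TPM, but to 630 and 255 TPM without mitochondrial genes in the scaling. Of 8 tested exporters 1 was called higher in the second library and 5 lower (median -1.11), beside the same shares over all genes. They were led by Slc30a4 (55.5 and 29.7 TPM, log2 ratio -2.18), Slc30a5 (49.6 and 51.8 TPM, -1.22) and Slc30a9 (22.1 and 27.4 TPM, -1.002), of which Slc30a4 and Slc30a5 load zinc into vesicles and the secretory pathway. The median GC content was 54.2% for the importers and 45.4% for the exporters. With the plain GC trend removed, 3 importers were called higher in the second library and 5 lower (median -0.30), where the shares over all genes were 17.6% and 17.7%. Of the exporters 0 were called higher and 2 lower, and the other 6 were under 2-fold. With the weighted trend, 3 importers were called higher and 2 lower (median -0.13), against 15.0% and 14.0% over all genes, and all 8 exporters differed by less than 2-fold. Slc39a14 stood at -1.99 with the plain trend removed, called lower, and at 0.19 with the weighted one.

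Genes of copper transport summed to 265 and 695 TPM, but to 957 and 886 TPM without mitochondrial genes in the scaling. Of 16, all tested, 7 were called higher in the second library, 3 lower, and 6 were under 2-fold. The shares over all tested genes were 40.2% higher and 27.5% lower, for this list and the enzyme lists below. Beside Slc31a1 and Atox1 the list was led by Cox17, which carries copper to cytochrome oxidase, at 41.1 and 173 TPM (log2 ratio 0.31). Among 9 copper-dependent enzymes tested, 4 were called higher in the second library and 3 lower. The superoxide dismutase Sod1 stood at 36.1 and 903 TPM (log2 ratio 3.40), the diamine oxidase Aoc1 at 44.0 and 407 TPM (1.93), and hephaestin, Heph, the ferroxidase of enterocyte iron export, at 82.9 and 86.0 TPM (-1.21). Tyrosinase, Tyr, of pigment cells, had 0 counts in both. Among 12 zinc-dependent enzymes of the gut, 6 were called higher in the second library and 2 lower. The alkaline phosphatases Akp3 (48.8 and 1649 TPM) and Alpi (44.0 and 1524 TPM) and the aminopeptidase Anpep (195 and 1555 TPM) led that list.

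These enzyme and copper counts also moved with the GC trend. With the plain trend removed, calls higher and lower in the second library were 5 and 1 for copper transport, 2 and 1 for the copper enzymes and 4 and 1 for the zinc enzymes, against 17.6% and 17.7% over all genes. With the weighted trend they were 4 and 2, 2 and 1, and 2 and 0, against 15.0% and 14.0%. Sod1 kept its call, with log2 ratios of 1.68 (plain) and 1.38 (weighted). Aoc1 moved to 0.12 and 0.11 and Heph to 0.048 and -0.36, all under 2-fold. Akp3 moved to 0.46 and -0.52, and Anpep to -1.94, called lower, and 0.027. Alpi stood at 1.12, called higher, and at 0.74, under 2-fold. Cox17 was called higher at 1.62 with the plain trend and stood at 0.75 with the weighted one.

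Of the 52 genes tested in these lists without the 9 members, 21 were called higher in the second library and 14 lower, and their median log2 ratio of 0.26 was that of all tested genes. The shares over all tested genes were 40.2% and 27.5%. With the plain GC trend removed the counts were 11 and 9, against 17.6% and 17.7% over all genes. With the weighted trend they were 8 and 5, against 15.0% and 14.0%.

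**Figure D4:**
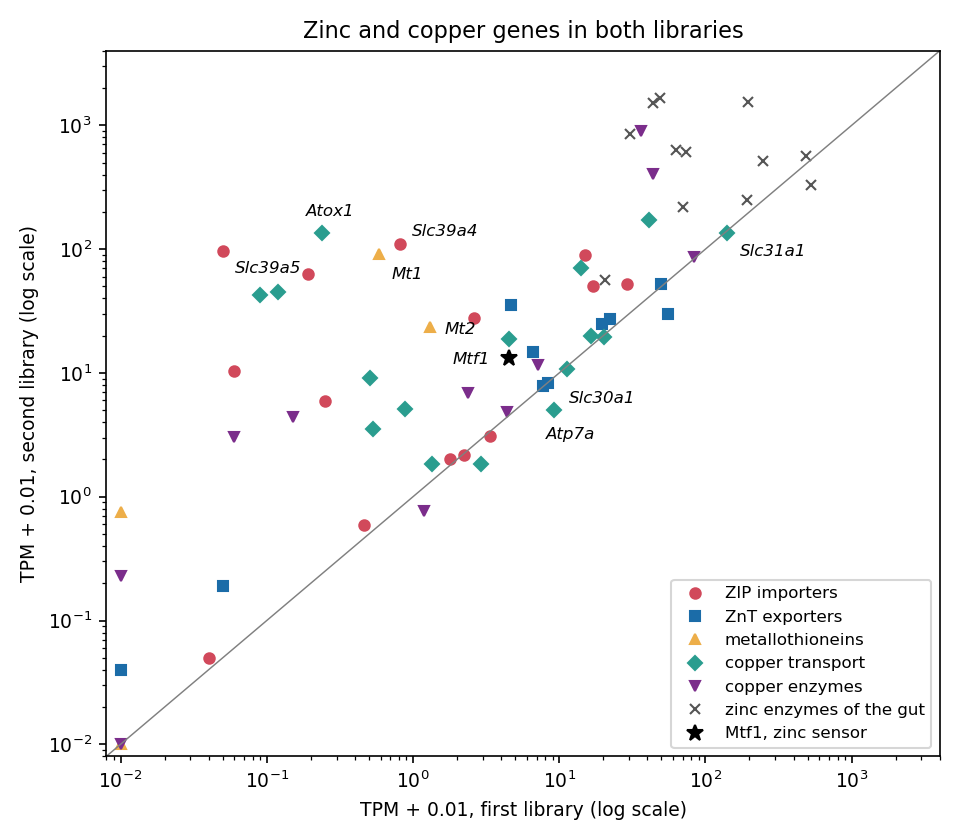
TPM in the second library against TPM in the first (both log axes, with a small constant added so that genes at 0 can be drawn) for the 67 genes of the zinc and copper lists, marked by list, and Mtf1; the grey line is equality and the members are named. Most points lie above the line, with Atox1, Slc39a5, Slc39a4 and Mt1 far above it and Slc31a1 and Slc30a1 on it. The TPM are scaled with mitochondrial genes included, which lowers the other genes in the first library.

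Transcript shares could differ only for members with several annotated transcripts. Slc31a1 was read almost wholly as Slc31a1-201, at 98.5% and 99.6% of the gene's TPM, and Slc30a1 had counts in 1 of its 2 transcripts. The tables list 1 transcript each for Mt1, Mt2 and Slc39a4. For Atp7a, 61.5% of the TPM in the first library was assigned to Atp7a-204, a 674-base processed transcript. It had 81.4 expected counts there, or 14.3% of the gene's counts. In the second library that transcript had 0 counts. The full-length coding transcripts Atp7a-201 and Atp7a-202 together stood at 3.39 TPM in the first library and 4.97 TPM in the second. In TPM the order of the libraries was thus the opposite of that for the whole gene. These TPM carry the mitochondrial share, which lowers the first library, and the coding transcripts were not rescaled without it. Their expected counts were 399 and 208 for Atp7a-201 and 71.1 and 233 for Atp7a-202. They therefore do not show coding Atp7a to be higher in the second library. Mtf1-201, the main coding transcript of 7631 bases, held 93.9% and 89.7% of the gene's counts but 51.0% and 47.0% of its TPM. The short retained-intron transcript Mtf1-204 held 17.4% and 42.6% of TPM, from 13.7 and 63.8 expected counts. Slc39a5-201 held 93.9% of TPM in the second library, and both counts of the first library went to Slc39a5-202. Atox1-201 held 70.5% and 99.2%, the first from under 2 expected counts.

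**Figure D5:**
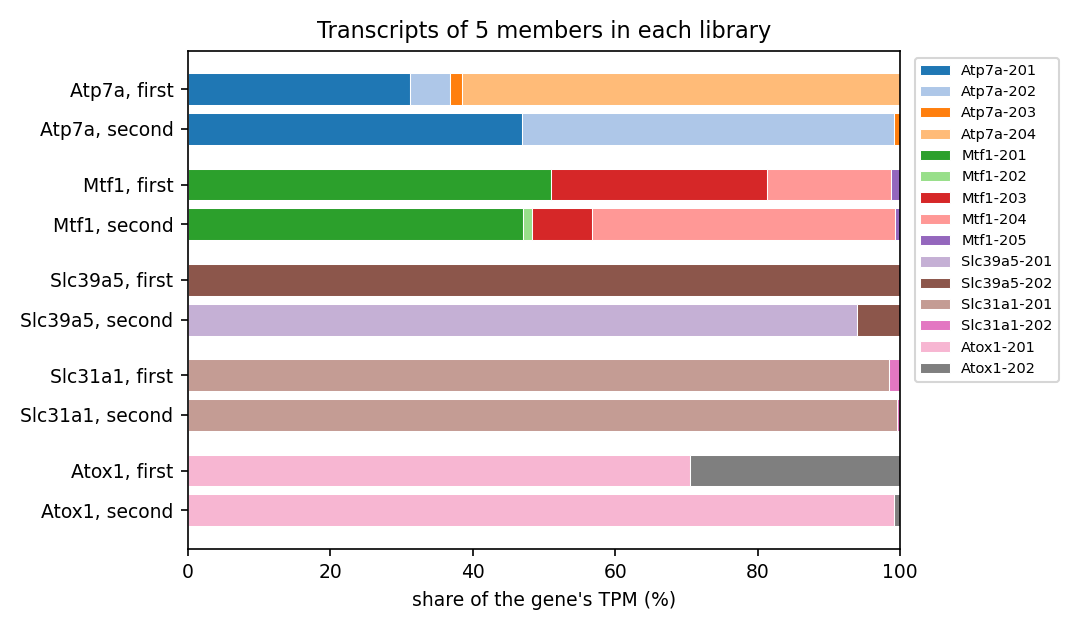
Share of each gene's TPM (%) held by its transcripts in the first and second library, for the 5 members with counts in more than 1 transcript; each colour is a transcript. Atp7a-204 fills 61.5% of the first library's bar and is absent from the second, while Slc31a1-201 fills nearly all of both bars.

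Several members share ground with genes on the opposite strand, and the sources used here do not say whether counting used strand. Slc39a5 lies with all its 5299 bases inside the span of Ankrd52, which stood at 1.28 and 12.8 TPM. Slc31a1 overlaps Cdc26 over 8116 bases (10.9 and 34.5 TPM), Mtf1 overlaps 1110065P20Rik over 721 bases (0.19 and 14.8 TPM) and Slc30a1 overlaps 1700034H15Rik over 761 bases (0.17 and 0.68 TPM). These overlaps are of gene spans, introns included. Among transcripts, at 95% identity over 100 bases, Mtf1 matched 1110065P20Rik over up to 721 bases and Slc30a1 matched 1700034H15Rik over up to 469. Slc39a5 and Slc31a1 had no such match, and shorter matches were left out. Reads in shared transcript bases cannot be told apart without strand, so the values concerned carry that uncertainty. Mt2 overlaps the antisense gene Gm45774 over 749 bases, with a transcript match of up to 212 bases. No value of Gm45774 was used here. Mt1 and Mt2 had no match of 95% identity over 100 bases to each other, so at that limit their reads are separable.

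The genes most like Mt1 in level over both libraries, by Euclidean distance in log2(TPM + 1), were Ppard (0.56 and 93.0 TPM), Hcfc1r1 (0.54 and 94.3 TPM) and Myo7b (0.68 and 97.3 TPM). Their distances were 0.0241, 0.0509 and 0.119. Nearest to Slc39a4 were Igsf9 (0.90 and 107 TPM), Erich4 (0.89 and 106 TPM) and Plxnb2 (0.93 and 105 TPM), at 0.0838, 0.0842 and 0.119. The distance rests on 2 libraries only, and the GC contents of these 6 genes ranged from 53.5 to 59.1%.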

How the data were processed

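Poly(A) RNA of the small intestine of 1 mouse was read from 2 technical libraries. Per the file headers the tables, by gene and by transcript, follow RSEM, and the deposited notes name mm10 and annotation M4. The sources used here do not give the aligner, read filters or strand setting. The authors deposited expected counts, which share out reads that match several features, and TPM and FPKM, which correct for effective length. The authors also deposited TPM bounds and each transcript's percent of its gene's TPM.

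Symbols and positions came from GENCODE M21 by identifier without version, which named 42462 of 43346 genes. Near-identical copies were sought with BLAST 2.17.0 at 95% identity over 100 bases. Expected counts were rounded to whole numbers. The quasi-likelihood test of edgeR needs replicates on a side and could not be fitted with 1 library each. Instead a two-sided exact binomial test (scipy 1.17.1) was run on genes with 20 or more counts over both libraries. Library sizes scaled by TMM set the expected split (edgeR 4.0.16, factors 0.748 and 1.34). A call needed a Benjamini-Hochberg adjusted p under 0.05 and a 2-fold difference. Log2 ratios, with 0.5 prior counts added, divide the second library by the first. The reads carry no stated molecular identifiers and are not independent molecules, so all intervals (95%) cover counting error only. The GC trend was a lowess fit (span 0.3, statsmodels 0.14.6) over tested nuclear genes. The test was also run on simulated counts with known changes. Those counts had counting error only and no GC trend, so the run does not cover the differences between these libraries.

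The members and lists were chosen with earlier results of these data known. Named genes were the 9 members, the 3 of highest mean TPM in each list, genes at 0 counts in both libraries of lists of 5 or more, and the 3 nearest protein-coding genes to Mt1 and Slc39a4. Mt4, Prss1, Ahsg and the overlapping genes were named after their values were seen. Alternatives were FPKM, TPM without mitochondrial genes, other library sizes including DESeq2 1.42.0 size factors, 5 prior counts, other count minimums, GC removal and each library alone.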

Additional observations from a re-analysis of the deposited data

How the results depend on the processing

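With the GC trend removed, Mt2 changed sign to -0.17, Mtf1 to -0.30 and Atp7a to 0.76, and with weighted GC, an alternative chosen after seeing the data, they stood at -0.56, -0.042 and 0.47. The count of members called, 7 as reported, was 4 with weighted GC. The count of zinc and copper list genes called, 42 of 60 as reported, was 25 with GC removed and 17 with weighted GC, and the percent of all tested genes called was 35.3 and 29.0 against 67.7. Total counts as library sizes moved the median of all genes from 0.26 to 1.10, called Mtf1 higher in the second library (1.05), and left Slc30a1 (-0.45) and Slc31a1 (-0.52) under 2-fold. DESeq2 size factors called Atp7a higher in the first (-1.04). Mt1, Slc39a4, Slc39a5 and Atox1 kept their direction and call under each alternative run. No paired analysis was possible because there is 1 group. The values of Slc39a5 and Atox1 in the first library rest on 2 counts each, so their folds are limited by depth.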
